A study of Mus musculus with 107 samples.

Results

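Adenylyl cyclases make the second messenger cyclic AMP, and cyclic nucleotide phosphodiesterases break down cyclic AMP, cyclic GMP or both. Their messenger RNAs were described here across neurons and glia of the mouse brain and spinal cord. The members were all genes whose symbol in the array annotation is that of an adenylyl cyclase (Adcy with a number) or of a phosphodiesterase of families Pde1 to Pde11 (Pde with a number and a letter). The rule gave 33 of 18194 measured genes, 10 of them Adcy and 23 of them Pde genes. The symbol rule uses no measured value. Each gene was read from its probe set of highest mean.

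Ribosome-bound RNA had been purified by translating ribosome affinity purification (TRAP). Mice carried a bacterial artificial chromosome (BAC) with a tagged ribosomal protein under the control region of a cell-type gene, called the driver, and tagged ribosomes were pulled out of tissue extracts. RNA left in the unbound fraction served as the tissue reference. The 24 TRAP populations comprised 76 of the 107 arrays, and unbound RNA of 6 tissues made up the other 31. There were 6 TRAP arrays of Purkinje neurons, 4 of cortical astrocytes and 3 of every other population. The 7 glial populations were cortical astrocytes (driver aldh1l1, lines JD130 and JD133), cerebellar astrocytes (aldh1l1, JD130), Bergmann glia (septin4, DS152), cortical and cerebellar mixed oligodendroglia (olig2, JD97), and cortical and cerebellar mature oligodendrocytes (cmtm5, JD307). The cholinergic populations all came from 1 line (chat, DW167) and were those of brainstem motor neurons, spinal cord, striatum and basal forebrain. Striatal medium spiny neurons came from a Drd1 line (CP73) and a Drd2 line (CP101). Cortical neurons were Cort+ (cort, GM130), Cck+ (cck, GM391) and Pnoc+ neurons (pnoc, GM64) and neurons of layers 5a (etv1, TS88), 5b (glt25d2, DU9) and 6 (ntsr1, TS16). Cerebellar neurons were Purkinje (pcp2, DR166 and DR168), granule (neurod1, JP241), unipolar brush (grp, JP25), Golgi (grm2, JP77), and stellate and basket neurons (lypd6, JP48). Unbound RNA came from striatum (6 arrays, 3 lines), cerebellum (7 arrays, 3 lines), cortex (9 arrays, 9 lines), basal forebrain, brainstem and spinal cord (3 arrays and 1 line each). A TRAP population is therefore whatever cells express the driver's BAC, in most cases in 1 transgenic line, and all mice carried such a transgene. Age, sex and strain were not given in the labels.

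The family divides by what regulates each enzyme and by its substrate. Among the cyclases, Adcy1 and Adcy8 are stimulated by calcium and calmodulin, Adcy2, Adcy4 and Adcy7 are stimulated by G protein beta-gamma subunits once the stimulatory alpha subunit is bound, Adcy5 and Adcy6 are inhibited by calcium, and Adcy10 is the soluble, bicarbonate-sensitive enzyme. Among the phosphodiesterases, the Pde4, Pde7 and Pde8 enzymes hydrolyse cyclic AMP, Pde5a, Pde9a and the photoreceptor Pde6 enzymes hydrolyse cyclic GMP, and Pde1, Pde2a, Pde3, Pde10a and Pde11a accept both. In striatal medium spiny neurons, dopamine and adenosine receptors act on Adcy5 through the G protein alpha subunit Gnal, and cyclic AMP drives the phosphorylation of Ppp1r1b (DARPP-32).

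Start-site sequences are shown for the 4 members that stand for the main patterns below and have 1 entry in RefSeq's promoter table: Adcy5 and Pde7b (medium spiny neurons), Pde5a (Purkinje neurons) and Pde8a (oligodendroglia). Each is a window of 300 bases, most of it before the gene's start and the end of it just after, on build GRCm38.p6, 5′ to 3′ on the gene's strand. Capitals mark matches, on either strand, of GGGCGG (the GC box) and TGACG (the core of the cyclic AMP response element).
Adcy5, chr16:35154614-35154913, plus strand: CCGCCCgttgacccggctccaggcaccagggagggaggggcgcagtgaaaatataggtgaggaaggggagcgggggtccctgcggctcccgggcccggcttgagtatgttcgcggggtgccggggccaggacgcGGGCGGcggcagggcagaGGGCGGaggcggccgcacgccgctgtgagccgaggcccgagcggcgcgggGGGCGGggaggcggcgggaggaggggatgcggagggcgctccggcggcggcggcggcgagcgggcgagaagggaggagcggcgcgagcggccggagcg
Pde7b, chr10:20548279-20548578, minus strand: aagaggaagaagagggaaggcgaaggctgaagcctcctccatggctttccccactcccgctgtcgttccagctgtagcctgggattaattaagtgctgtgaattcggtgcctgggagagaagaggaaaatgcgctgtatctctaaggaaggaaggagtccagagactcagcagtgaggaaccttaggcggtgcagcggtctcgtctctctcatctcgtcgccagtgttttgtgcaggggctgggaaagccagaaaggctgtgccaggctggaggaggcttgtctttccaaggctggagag
Pde5a, chr3:122728908-122729207, plus strand: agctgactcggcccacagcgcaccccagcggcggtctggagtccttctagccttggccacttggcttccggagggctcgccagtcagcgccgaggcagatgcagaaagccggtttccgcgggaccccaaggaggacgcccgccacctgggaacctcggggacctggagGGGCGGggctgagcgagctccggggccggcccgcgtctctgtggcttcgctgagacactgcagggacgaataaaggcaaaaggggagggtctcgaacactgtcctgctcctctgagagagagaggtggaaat
Pde8a, chr7:81213015-81213314, plus strand: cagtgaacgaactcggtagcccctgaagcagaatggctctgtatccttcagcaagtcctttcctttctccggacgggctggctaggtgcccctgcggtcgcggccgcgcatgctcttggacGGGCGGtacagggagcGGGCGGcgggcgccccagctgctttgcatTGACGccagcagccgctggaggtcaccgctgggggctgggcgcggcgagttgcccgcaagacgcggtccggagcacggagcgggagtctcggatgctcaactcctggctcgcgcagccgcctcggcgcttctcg
GGGCGG occurred 4 times in the Adcy5 window, 2 times in that of Pde8a, 1 time in that of Pde5a and 0 times in that of Pde7b. TGACG occurred 1 time, in Pde8a. Neither the full response element TGACGTCA nor TATAAA occurred in any of the 4 windows. Over all 32851 windows of the table, GGGCGG was present in 35.7%, TGACG in 20.8%, TATAAA in 13.6% and TGACGTCA in 1.79%. The Adcy5 window held 44 CpG dinucleotides and the Pde7b window 10, with 34 in Pde8a and 23 in Pde5a. The windows of Adcy5 and Pde7b, which share their highest populations, thus differed in CpG content. Of the 33 members, 24 had an entry, 10 of them with several starts. Those are not shown, since the table does not say which start is used in these cells.

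Values are log2 intensities after GCRMA by the authors and a further scaling between groups on 18 biotinylated control probe sets. Every comparison is within a gene, because probe sets of different genes are not on a common scale. A mean of 6, an intensity of 64, was the minimum for a gene to be treated as measurable in a group. A call needed an adjusted p under 0.05 in limma and a difference of at least 2-fold, and in comparisons of populations the higher side also had to exceed unbound RNA of its tissue. Folds are written "at least" where the lower side lay under 6, which was then used in its place. The median TRAP minus unbound difference of all genes lay between -1.96 and 1.31 by population, so results whose call ended under quantile normalization over all arrays are marked, as are those between populations whose call ended with no further scaling. GCRMA within groups left many replicate values identical. Of the 576 group means of members at or above 6, 49 had the same value on all arrays, and 172 of 484 such means in groups of 3 arrays had at least 2 identical values. Spreads between replicates and p-values are therefore too small for these genes.

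Of the 33 members, 25 reached 6 in at least 1 of the 30 groups, 8 Adcy and 17 Pde genes. Adcy4, Adcy10, Pde3a, Pde6a, Pde6b, Pde6g, Pde6h and Pde11a stayed below it everywhere on the probe set used, with highest group means between 3.53 and 5.51. A second Pde6g probe set reached 6.08 in granule neurons and 6 in no other population. Pde4c had no probe set with a single matching symbol. Pde4d and Pde6d reached 6 in all 24 populations, and 14 members did so in 20 or more. With values under 6 set to 6, the median member spanned 5.31 log2 units between its highest and lowest population, against a median of 3.32 (quartiles 2.27 and 4.43) over all genes that reached 6. The highest population of a member was one of 12. Drd1 medium spiny neurons held the highest level of 7 members (Adcy5, Pde10a, Pde1b, Pde2a, Pde4b, Pde7b and Pde8b) and layer 5a neurons that of 4 (Adcy3, Adcy6, Adcy7 and Pde4a). These ranks depend on the further scaling, whose subtracted shifts were -1.29 in Drd1, -0.91 in Drd2 and -0.22 in layer 5a neurons. Without it, Adcy5, Pde10a and Pde1b were higher in Drd2 than in Drd1 neurons. Pde2a and Pde4b were then higher in layer 5a than in Drd1 neurons. The layer 5a RNA also held markers of other cells: 8 of 8 microglial and macrophage markers were at or above 6 with a mean of 11.1, and astrocyte and myelin markers averaged 12.4 and 12.7. Their part in the layer 5a levels was not tested.

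**Figure D1:**
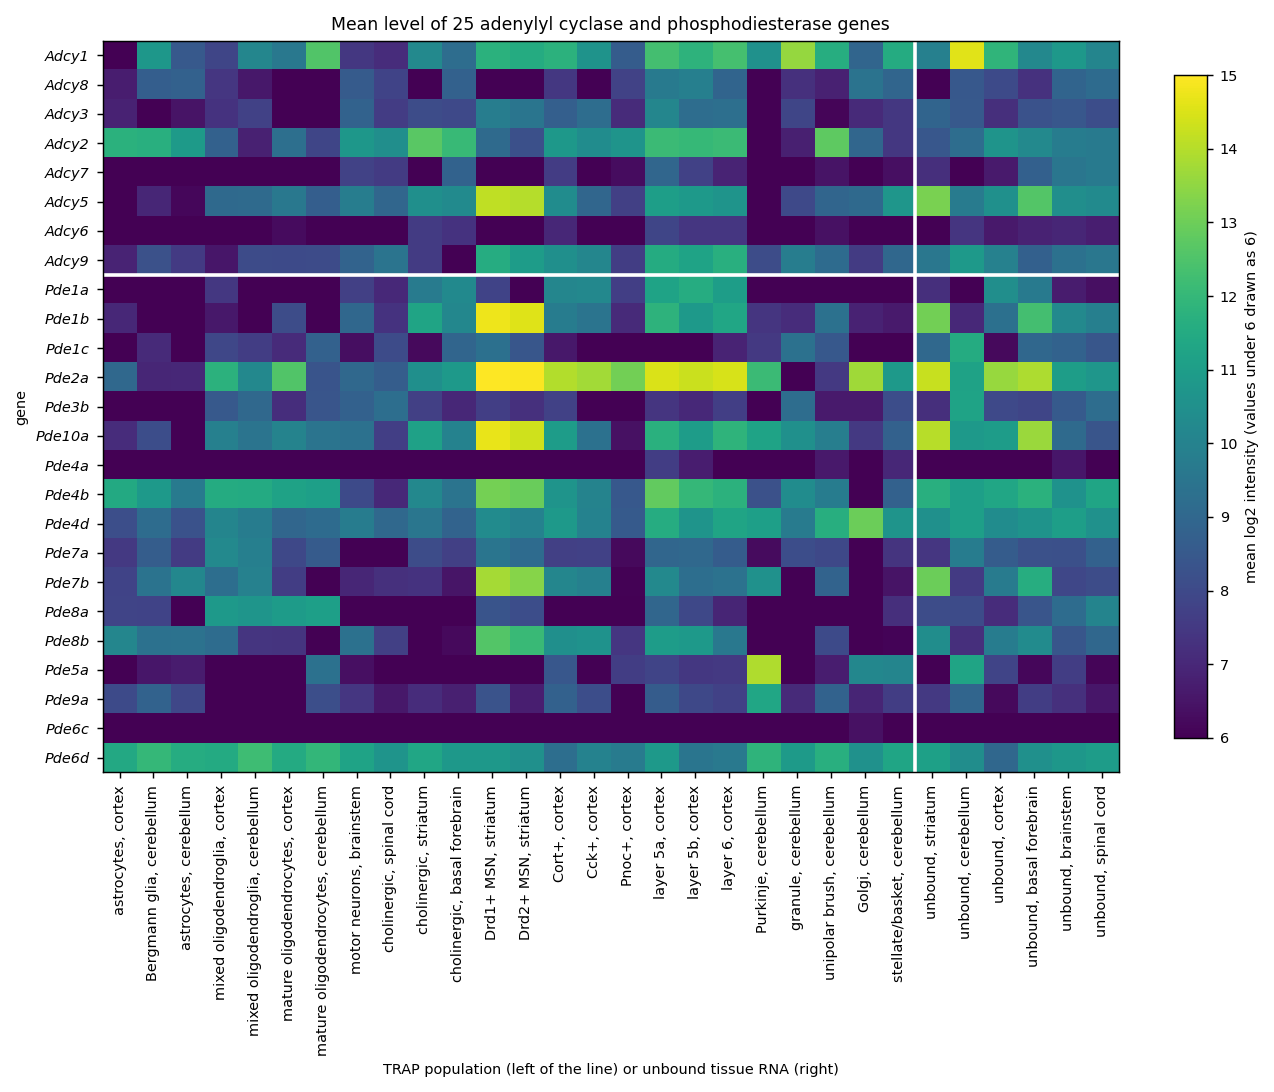
Heat map of the mean log2 intensity of the 25 members that reached 6 (rows, cyclases above the white line) in 24 TRAP populations and, right of the vertical white line, unbound RNA of 6 tissues. Colours are to be read along a row. MSN stands for medium spiny neurons. Adcy5, Pde10a, Pde1b, Pde7b and Pde8b are brightest in Drd1 and Drd2 medium spiny neurons, Pde5a in Purkinje neurons, and Pde8a in the 4 oligodendroglial populations.

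Among the calcium-stimulated cyclases, Adcy1 was measurable in 23 of 24 populations and Adcy8 in 17. Adcy1 was highest in granule neurons, at 13.44, 13.74 and 13.58, and lowest in cortical astrocytes, at 5.48, 5.50, 5.67 and 6.33. Its unbound level was highest in cerebellum (lowest 14.43, median 14.61 and highest 14.75 of 7 arrays), above every granule array. In unbound RNA, fewer cells of a type and less RNA per cell cannot be told apart. Cerebellar mature oligodendrocytes were next after granule neurons, at 12.66, 13.14 and 11.83, and their granule marker genes (Neurod1, Gabra6 and Zic1) averaged 13.7, against 15.2 in granule neurons. The part of granule cell RNA in that level was not tested. Adcy8 was highest in layer 5b (9.89, 10.20 and 9.61) and layer 5a (9.53, 9.76 and 9.72), which did not separate. It was below 6 in both medium spiny populations, at 4.46 on all 3 Drd1 arrays and 3.50, 3.50 and 3.51 in Drd2 neurons.

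Of the cyclases stimulated by beta-gamma subunits, Adcy2 was the one with the widest spread among populations. It stood at 12.61, 12.73 and 12.94 in unipolar brush neurons and at 12.93, 12.83 and 12.28 in striatal cholinergic neurons, and the arrays of these populations overlapped. It was at 3.84 on all 6 Purkinje arrays, under the minimum. In glia, Adcy2 was at 11.75 in cortical astrocytes, 11.68 in Bergmann glia and 10.90 in cerebellar astrocytes, and between 6.83 and 9.29 in the 4 oligodendroglial populations. Adcy7 was measurable in 10 populations, none of them glial, and was highest in layer 5a (9.50, 8.60 and 8.77) and basal forebrain cholinergic neurons (8.82 on all 3 arrays). Its highest unbound level, 9.72 in spinal cord, was above every TRAP mean.

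Adcy5, the principal cyclase of medium spiny neurons, was at 14.44, 14.26 and 13.72 in Drd1 and at 13.88, 14.04 and 14.09 in Drd2 neurons. The next population, layer 5a, was at 11.16, 11.04 and 10.92, with no overlap. Purkinje neurons were the lowest, with 6 arrays between 4.32 and 4.42. Its close relative Adcy6 was measurable in 8 populations and never above 7.88, its mean in layer 5a. Adcy9, which responds only weakly to forskolin, was measurable in 23 populations, with similar means of 11.67, 11.59 and 11.53 in layer 6, Drd1 and layer 5a neurons and a low of 5.44 in basal forebrain cholinergic neurons. Adcy3, known from the cilia of olfactory neurons, was at 10.14 on all 3 layer 5a arrays, followed by Drd1 and Drd2 neurons at 9.83 and 9.49.

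The calcium-dependent Pde1 genes differed among themselves. Pde1b was at 14.52, 15.08 and 14.73 in Drd1 and 14.25, 14.46 and 15.02 in Drd2 neurons, which overlapped, against 11.80 in the next population, layer 5a. Pde1a was highest in layers 5b, 5a and 6, with means of 11.56, 11.21 and 11.02, and measurable in 12 populations. Pde1c was highest in granule and Drd1 neurons (means of 9.36 and 9.33). Granule arrays lay between 9.25 and 9.52, against 11.16 to 12.04 in unbound cerebellum. No TRAP population in this series reached the Pde1c level of unbound cerebellum.

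Pde2a, which cyclic GMP activates, was measurable in 23 populations. It was at 15.15, 15.37 and 14.93 in Drd1 neurons and 14.96 on all 3 Drd2 arrays, with layer 5a at 14.51, and at 5.29, 6.05 and 6.17 in granule neurons. Pde10a, known for its abundance in medium spiny neurons, was at 14.71, 14.66 and 14.71 in Drd1 and 14.41, 14.41 and 14.28 in Drd2 neurons, and layer 6 was next at 11.84. Pde3b, which insulin signalling activates in fat cells, was highest in spinal cord cholinergic neurons (9.26) and granule neurons (9.21). Its level in unbound cerebellum was 11.21, above every population.

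The cyclic AMP-specific enzymes fell into different places. Pde4b was highest in Drd1 (12.84, 13.34 and 13.23) and Drd2 neurons (12.52, 12.99 and 13.27) and under 6 in Golgi neurons alone, at 4.72, 4.91 and 4.72. Pde4d was highest in Golgi neurons, at 12.86, 13.36 and 12.68, and above 8 in all populations. Pde4a reached 6 in 5 neuronal populations, at most 7.63 in layer 5a. Pde7b was at 13.80, 13.82 and 13.77 in Drd1 and 13.38, 13.64 and 13.04 in Drd2 neurons, 10.56 in Purkinje neurons and 2.50 on all 3 granule arrays. Pde7a was highest in cortical mixed oligodendroglia (10.23). Pde8b was at 12.53, 12.69 and 12.53 in Drd1 and 12.05, 12.17 and 12.05 in Drd2 neurons. Pde8a, its closest relative, had its 4 highest levels in the oligodendroglial populations, from 10.70 to 11.09, and was measurable in 6 glial and 6 neuronal populations.

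Among the cyclic GMP enzymes, Pde5a, the target of sildenafil, was at 13.59, 13.94 and 14.17 (lowest, median and highest of 6 arrays) in Purkinje neurons. Golgi neurons at 10.16 and stellate and basket neurons at 10.10 came next, and 13 populations reached 6. Pde9a was also highest in Purkinje neurons, at 11.01, 11.37 and 11.61 over the 6 arrays, followed by unipolar brush neurons and Bergmann glia at 8.84 and 8.82. Pde6d, a prenyl-binding chaperone and no phosphodiesterase in itself, was between 9.24 in Cort+ neurons and 12.19 in cerebellar mixed oligodendroglia. Pde6c, the cone enzyme, reached 6 in Golgi neurons alone, at 6.42 on all 3 arrays, where photoreceptor markers averaged 2.37 with 0 of 3 at or above 6.

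Drd1 and Drd2 medium spiny neurons, the origins of the direct and indirect pathways of the striatum, were compared first. Drd1 neurons were higher than Drd2 neurons in 2 of 17 tested members and lower in 0. Over all 7435 genes tested, 7.4% were called higher and 0.928% lower. Pde1a was at 7.82 on all 3 Drd1 arrays, against 3.63, 4.44 and 4.44 on the Drd2 arrays, a difference of 3.65 ± 0.40 (SE, adjusted p = 3.88e-12) and at least 3.52-fold. Pde9a was at 8.13, 8.37 and 8.41 in Drd1 neurons, against 6.76 on all 3 Drd2 arrays, 2.91-fold higher (adjusted p = 8.57e-13). Both calls ended without further scaling, when neither gene could be tested. Cortical glutamatergic markers averaged 7.19 in Drd1 neurons (3 of 4 at or above 6), against 3.66 in Drd2 neurons (0 of 4), and their part in these calls was not tested. Adcy5, Pde10a, Pde1b, Pde2a, Pde4b, Pde7b and Pde8b were tested and not called, and the differences of all 15 members not called lay between 0.14 and 0.93. At an unadjusted p under 0.05, 7 members were higher in Drd1 neurons and 0 lower. The median difference of the tested members was 0.34, against 0.37 over all genes. Of 24 tested genes of the cyclic nucleotide pathway list (G protein subunits, protein kinases A and G, their anchors and targets, guanylyl cyclases), 1 was higher, the inhibitory subunit Gnai1, at 13.8 in Drd1 and 11.8 in Drd2 neurons.

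Medium spiny neurons (Drd1 and Drd2 averaged) were set against deep-layer cortical neurons (layers 5a, 5b and 6 averaged), and 6 of 23 tested members were higher and 7 lower. Over all 10599 genes tested, 12.5% were higher and 26.6% lower. Pde7b averaged 13.57 in medium spiny neurons, against 9.63 in deep-layer neurons, 15.4-fold higher (difference 3.95 ± 0.23, adjusted p = 1.69e-27). Pde1b was 10.2-fold higher (3.36 ± 0.18, adjusted p = 1.76e-29), Adcy5 9.30-fold (3.22 ± 0.12, adjusted p = 1.78e-38) and Pde10a 8.11-fold (3.02 ± 0.25, adjusted p = 1.01e-18). For each of these 4 genes every medium spiny array was above every deep-layer array. How many of all genes did the same is not given here. Pde7b could not be tested without further scaling. The calls of Adcy5 and Pde10a ended in that setting, because neither medium spiny population was then above unbound striatum. Pde8b was 3.63-fold higher, a call that ended without further scaling, and Pde1c at least 5.90-fold, a call that ended under quantile normalization. On the lower side, Adcy8 averaged 3.98 in medium spiny and 9.49 in deep-layer neurons, at least 11.3-fold lower (adjusted p = 1.31e-26). Pde1a was at least 20.5-fold lower (adjusted p = 7.19e-32) and Adcy2 11.0-fold lower, at 8.64 in medium spiny and 12.10 in deep-layer neurons (adjusted p = 1.53e-37). Adcy7, Adcy6 and Pde4a were lower by at least 3.64-fold, 2.97-fold and 1.72-fold.

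Pde4d fell by 1.01, a call that ended under quantile normalization, on leaving out any of 5 arrays (Drd1 replicate 3, layer 5a replicate 1, layer 5b replicates 1 and 2, layer 6 replicate 3) and without layer 5a. Pde2a was not called, at 15.05 in medium spiny and 14.42 in deep-layer neurons. The median difference of the members was 0.11, against -0.23 over all genes. Of 32 tested pathway genes 9 were higher and 8 lower. Ppp1r1b was at 13.9 in medium spiny and 9.5 in deep-layer neurons (4.43), Akap9, an anchor of protein kinase A, was higher by 3.56, Gnal by 2.66 and Arpp21, another striatal substrate of that kinase, by 2.50. The inhibitor Pkib was at least 9.12-fold lower, while the cyclic AMP-activated exchange factor Rapgef3 fell by 2.81, and the stimulatory and inhibitory alpha subunits Gnas and Gnai1 by 2.43 and 1.80.

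**Figure D2:**
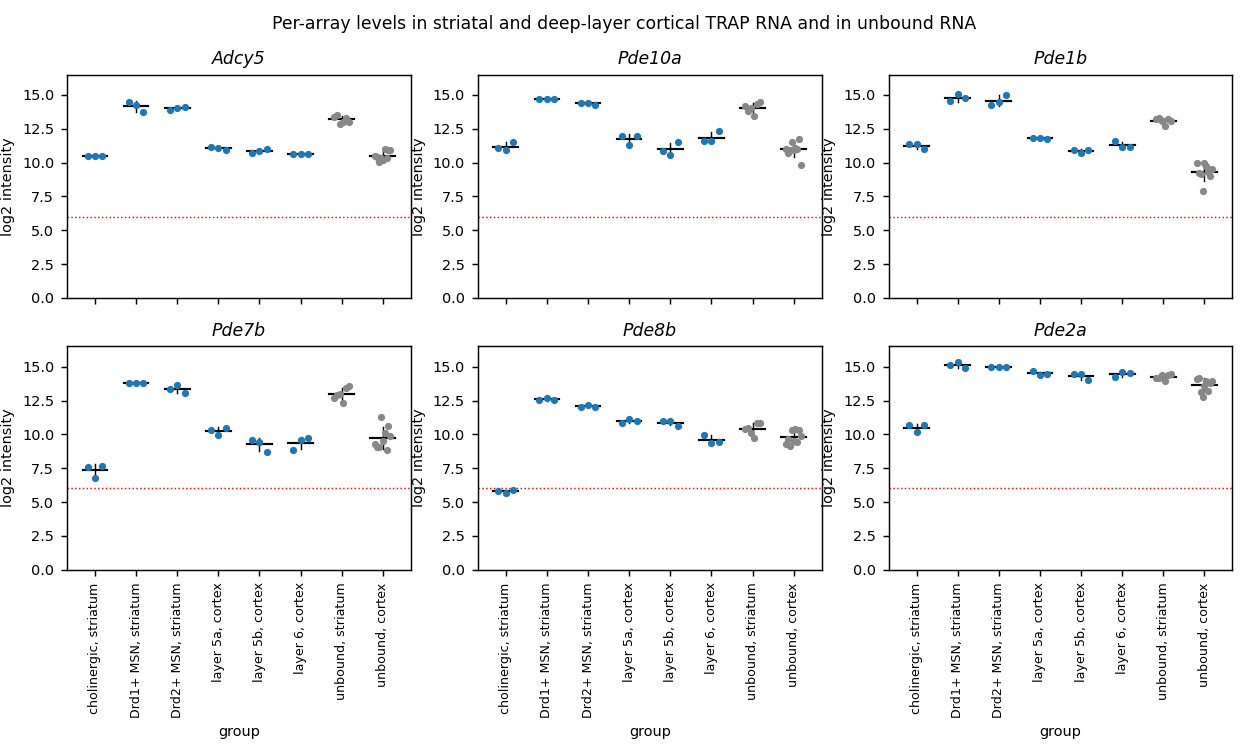
Log2 intensity on every array (points) for 6 members in striatal cholinergic neurons, Drd1 and Drd2 medium spiny neurons (MSN), deep-layer cortical neurons (blue) and unbound striatum and cortex (grey). Horizontal bars are means, vertical bars SDs, and the red dotted line is the minimum of 6. Each gene is at least 10.3-fold lower in striatal cholinergic than in medium spiny neurons, and Pde8b is under 6 in the cholinergic neurons.

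Within the striatum, 3 of 19 tested members were higher in cholinergic interneurons than in medium spiny neurons and 13 lower. Over all 8718 genes tested, 21.3% were higher and 39.6% lower. Adcy2 averaged 12.68 in cholinergic and 8.64 in medium spiny neurons, 16.4-fold higher (4.04 ± 0.19, adjusted p = 1.25e-33). Pde1a was at 10.00, 10.00 and 9.23 in cholinergic neurons and was at least 7.14-fold higher (adjusted p = 1.13e-16), and Adcy6 at least 2.97-fold. Pde8b was at 5.84, 5.69 and 5.89 in cholinergic neurons, against a mean of 12.34 in medium spiny neurons, at least 80.9-fold lower (adjusted p = 6.54e-44). Pde7b was at 7.55, 6.77 and 7.67, 75.7-fold lower (adjusted p = 4.61e-32), and Pde2a at 10.66, 10.14 and 10.66, 23.7-fold lower (adjusted p = 4.41e-30). Adcy9, Adcy5, Pde1b and Pde10a were lower by 13.3-fold, 12.1-fold, 10.8-fold and 10.3-fold, Pde4b by 7.07-fold and Adcy1 by 2.63-fold. The Adcy1 call ended without further scaling and with limma's treat test against a 2-fold bound. Pde7b, Pde2a, Adcy5 and Pde10a could not be tested without further scaling, since neither side was then above unbound RNA. Cholinergic and medium spiny arrays did not overlap for any of these genes, which are named because they were called. The share of all genes without overlap is not given here. Pde8a, Pde1c, Adcy3 and Pde7a were also lower, but those calls ended under quantile normalization.

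The median member difference was -2.64, against -0.51 over all genes. Medium spiny marker genes averaged 9.02 in the cholinergic RNA (4 of 4 at or above 6), against 12.3 in Drd1 and 12.9 in Drd2 neurons, and their part in the levels measured in cholinergic RNA was not tested. Of 29 pathway genes 6 were higher and 14 lower in cholinergic neurons. Pkib was at least 30.6-fold higher, the anchor Akap12 at least 2.41-fold, Gnai2 was higher by 2.67 and Gnas by 2.60, while Ppp1r1b fell by 5.79, Arpp21 by 4.04, and the CREB coactivator Crtc1 was at least 15.6-fold lower.

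Among cholinergic neurons, those of brainstem and spinal cord were higher than those of striatum and basal forebrain in 2 of 14 tested members and lower in 5. Over all 6004 genes tested, 14% were higher and 24% lower. Pde8b averaged 8.53 in brainstem and spinal cord and 6.01 in forebrain neurons, at least 5.35-fold higher (2.51 ± 0.17, adjusted p = 4.28e-23). Pde3b averaged 9.02 and was 3.14-fold higher than in forebrain neurons at 7.37 (adjusted p = 9.65e-13). Pde1a, Adcy1 and Adcy2 were lower by 6.16-fold, 5.39-fold and 3.36-fold, and Pde7a and Adcy6 by at least 3.71-fold and 2.71-fold. All 7 calls held under quantile normalization. Of 17 pathway genes 2 were higher and 6 lower, among them Gnai2, which fell by 3.17. Pde10a, at 8.52 in brainstem and spinal cord and 10.57 in forebrain neurons, was not called, because its forebrain level did not exceed unbound RNA.

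In cortex, Cort+ neurons, a class of interneurons, were higher than deep-layer neurons in 1 of 23 tested members and lower in 8. Over all 10257 genes tested, 4.56% were higher and 36.5% lower. Pde8a averaged 5.48 in Cort+ and 7.96 in deep-layer neurons, at least 3.89-fold lower (adjusted p = 8.62e-13). Adcy8 was 4.07-fold lower, Pde1b 2.93-fold and Pde4b 2.90-fold. The calls of Adcy2, Pde7a, Pde4a and Pde1a, all lower, ended under quantile normalization. Pde1c, the member that was higher, averaged 6.57 in Cort+ and 5.38 in deep-layer neurons (1.19 ± 0.27, adjusted p = 9.88e-05), with overlapping arrays. Its call ended on leaving out Cort+ replicate 3, which gave 1.00, and without layer 5a, which gave 0.50. That of Pde4a ended on leaving out any Cort+ array or layer 6 replicate 1, and without layer 5a, at -0.74. Astrocyte markers averaged 10.6 in Cort+ RNA and 12.4, 10.4 and 10.7 in layers 5a, 5b and 6, and myelin markers 11.3 in Cort+ and 12.7, 10.6 and 10.5 in layers 5a, 5b and 6, and their part was not tested. Of 30 pathway genes 0 were called higher with limma (6 at an unadjusted p under 0.05) and 8 lower (14).

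In the cerebellum, Purkinje neurons differed from the other 4 neuron types in 11 of 15 tested members, 5 higher and 6 lower. Over all 6647 genes tested, 24.8% were higher and 26.4% lower. Pde5a averaged 13.93 in Purkinje neurons, against 3.71 on all 3 granule arrays, 6.40, 7.02 and 6.72 in unipolar brush neurons, 10.04, 10.47 and 9.99 in Golgi neurons and 10.10, 10.26 and 9.95 in stellate and basket neurons. It was at least 51.3-fold higher than their mean (6.25 ± 0.17, adjusted p = 5.63e-49). Every Purkinje array was above every other neuron array. Pde9a averaged 11.31 in Purkinje neurons and 7.61 in the others, 13.0-fold higher (adjusted p = 3.50e-50), and Pde7b, at 10.33, 10.50 and 10.97 over the Purkinje arrays, was at least 13.2-fold higher (adjusted p = 2.72e-35). Pde10a was 4.19-fold higher, at 11.22 in Purkinje neurons and 9.16 in the others. Pde2a averaged 12.15 in Purkinje neurons and was at least 6.22-fold higher than the mean of the others, though Golgi neurons stood above it at 13.58, 13.94 and 13.61.

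Of the cyclases tested, 4 were called lower in Purkinje neurons. Adcy2 averaged 3.84 in Purkinje neurons and 8.99 in the others, at least 7.96-fold lower (adjusted p = 1.06e-51), and Adcy5 averaged 4.35 and was at least 9.03-fold lower than in the others at 9.17 (adjusted p = 5.99e-53). Adcy8 was at least 4.31-fold lower. Pde4a, Pde8b and Adcy7 were also called lower, with both means under 6. Adcy1 and Adcy9 were measurable in Purkinje neurons and were not tested, because no neuron type of the comparison was above unbound cerebellum. All 11 calls held under quantile normalization. The median member difference was -0.17, against 0.14 over all genes.

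Of 25 pathway genes 8 were higher and 7 lower in Purkinje neurons. The regulatory subunit Prkar2b was at least 35.1-fold higher, Ppp1r1b at least 27.6-fold, the cyclic GMP-dependent kinase Prkg1, known for its abundance in Purkinje neurons, at least 16.9-fold (10.8 in Purkinje neurons and 4.8 in the others), and the guanylyl cyclase subunit Gucy1a2 4.38-fold. The subunit Gucy1a1 was at least 8.25-fold lower and Arpp21 at least 3.34-fold. Purkinje markers averaged 15.9 in Purkinje neurons, 14.0 in stellate and basket, 11.0 in unipolar brush, 10.2 in granule and 9.73 in Golgi RNA. Their part in the Pde5a levels of those populations was not tested.

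**Figure D3:**
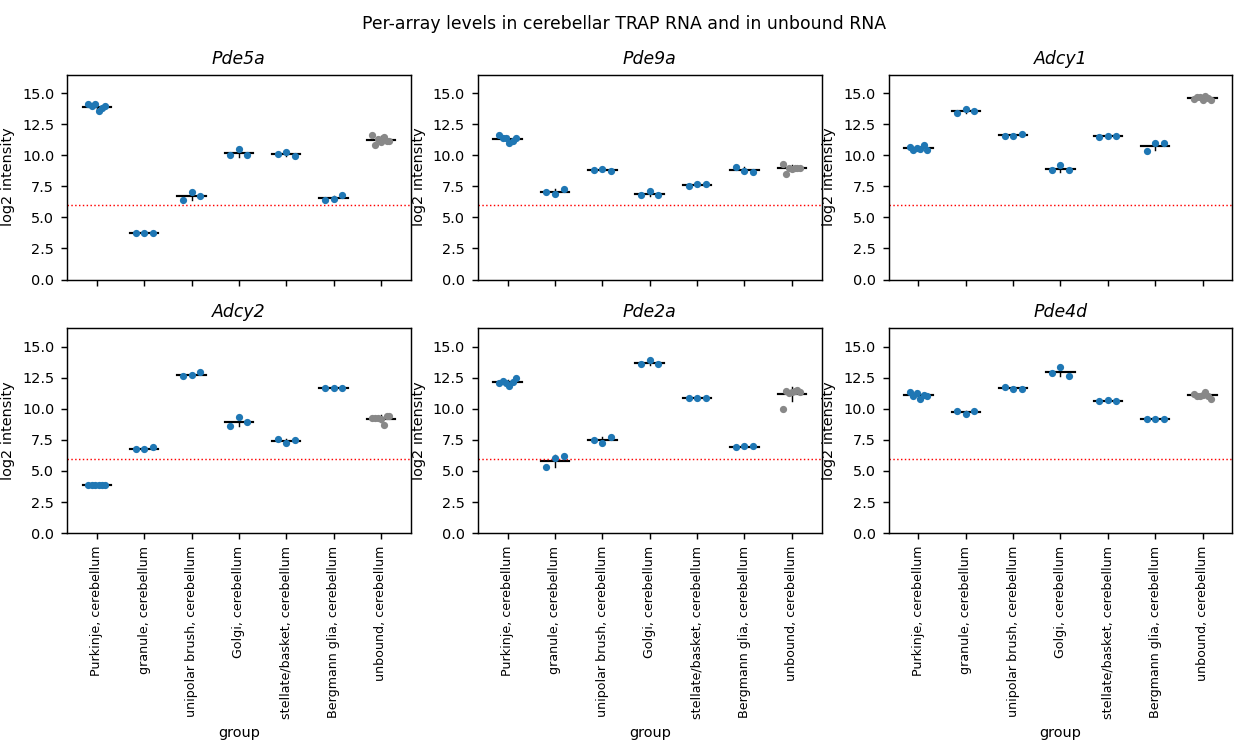
Log2 intensity on every array (points) for 6 members in 5 cerebellar neuron populations and Bergmann glia (blue) and in unbound cerebellum (grey). Horizontal bars are means, vertical bars SDs, and the red dotted line is the minimum of 6. Pde5a and Pde9a are highest in Purkinje neurons, Adcy2 lies under 6 there, and Pde4d and Pde2a are highest in Golgi neurons.

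Golgi neurons, the inhibitory neurons of the granular layer, were higher than stellate and basket neurons in 3 of 8 tested members and lower in 3. Over all 3563 genes tested, 8.67% were higher and 55.2% lower. Pde2a was at 13.58, 13.94 and 13.61 in Golgi neurons, against 10.86, 10.87 and 10.84 in stellate and basket neurons, 7.23-fold higher (2.85 ± 0.28, adjusted p = 1.30e-15). Pde4d was at 12.86, 13.36 and 12.68 in Golgi neurons, against 10.61, 10.75 and 10.63 in stellate and basket neurons, 4.95-fold higher (adjusted p = 6.05e-17). Both rose while the median difference of all genes was -1.16. Pde6c was at least 1.34-fold higher. Pde4a was at least 2.02-fold lower, and the lower calls of Adcy5 and Adcy7 ended under quantile normalization. Of 10 pathway genes 3 were higher, among them Gucy1a1 by 3.09, and 3 lower, among them the nitric oxide synthase Nos1, at 2.5 in Golgi and 11.1 in stellate and basket neurons, at least 34.9-fold lower.

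Granule neurons were lower than unipolar brush neurons, their excitatory neighbours, in 7 of 8 tested members and higher in 0. Over all 4756 genes tested, 16.3% were higher and 32.5% lower. Adcy2 was at 6.74, 6.74 and 6.91 in granule neurons, against 12.61, 12.73 and 12.94 in unipolar brush neurons, 62.4-fold lower (adjusted p = 7.09e-41). At an unadjusted p under 0.05, 0 members were higher and 8 lower in limma. Pde7b was at 2.50 on all 3 granule arrays, against 8.77, 8.94 and 8.89 in unipolar brush neurons, at least 7.30-fold lower (adjusted p = 8.62e-29), and Pde8b at least 4.10-fold. Pde1b and Pde4d were 4.70-fold and 3.77-fold lower, and Pde4a and Adcy7 at least 1.55-fold and 1.40-fold. All 7 calls held under quantile normalization. Bergmann glia markers averaged 13.7 in the unipolar brush RNA, against 15.0 in Bergmann glia, and astrocyte markers 11.3, and Bergmann glia held Adcy2 at 11.72, 11.66 and 11.66. Pde7b and Pde8b averaged 9.42 and 9.37 in Bergmann glia. The part of glial RNA in the unipolar brush levels of these genes was not tested. Of 15 pathway genes 0 were called higher (4 at an unadjusted p under 0.05) and 4 lower (6), with Gucy1a1 at 4.5 in granule and 12.1 in unipolar brush neurons and Gucy1b1, its partner subunit, which fell by 2.41.

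Among glia, 0 of 5 tested members were called higher or lower in Bergmann glia than in cerebellar astrocytes with limma, where 1 was higher and 1 lower at an unadjusted p under 0.05 (Adcy2 at 11.68 in Bergmann glia and 10.90 in astrocytes, Pde7b at 9.42 and 10.15). Over all 4334 genes tested, 11.2% were higher and 5.4% lower. Under quantile normalization 1 member was higher and 3 were lower. The median member difference was -0.02, against 0.32 over all genes. Of 12 pathway genes 1 was higher and 2 lower, led by Rapgef3, at 5.4 in Bergmann glia and 10.8 in cerebellar astrocytes.

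Cortical astrocytes were higher than cortical mature oligodendrocytes in 3 of 7 tested members and lower in 2. Over all 6217 genes tested, 47.8% were higher and 13.5% lower. Pde8b was at 9.93, 10.02, 9.91 and 10.67 in astrocytes, against 7.65, 7.58 and 6.84 in mature oligodendrocytes, 6.85-fold higher (2.78 ± 0.23, adjusted p = 4.96e-19). Adcy2 was 5.48-fold higher (adjusted p = 3.95e-19) and Pde9a at least 4.05-fold (adjusted p = 3.16e-29). Pde8a was at 7.28, 8.12, 7.16 and 8.81 in astrocytes, against 11.58, 10.50 and 10.76 in mature oligodendrocytes, 8.59-fold lower (difference -3.10 ± 0.32, adjusted p = 1.18e-14). Pde1c was at 2.20 on all 4 astrocyte arrays, against 7.11, 7.09 and 7.09 in mature oligodendrocytes, at least 2.14-fold lower (adjusted p = 8.85e-25). The pair Pde8a and Pde8b, which make the cyclic AMP-specific enzymes of highest affinity, thus ran in opposite directions between these glia. All 5 calls held under quantile normalization. Myelin markers averaged 6.91 in the astrocytes (3 of 5 at or above 6), against 14.3 and 14.2 in mature oligodendrocytes. Of 12 pathway genes 9 were higher in astrocytes, among them Akap7 by 3.14 and Rapgef3 by 2.86, and 1 lower, Gnai1, which fell by 3.81.

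Cortical mixed oligodendroglia, which hold progenitors beside mature cells, were higher than mature oligodendrocytes in 3 of 7 tested members and lower in 0. Over all 6497 genes tested, 43.4% were higher and 7% lower. Pde7a was at 10.25, 10.25 and 10.18 in mixed oligodendroglia, against 8.61, 7.90 and 7.38 in mature oligodendrocytes, 4.81-fold higher (2.26 ± 0.36, adjusted p = 4.47e-08). The calls of Adcy3 and Pde3b ended under quantile normalization. At an unadjusted p under 0.05, 4 members were higher and 0 lower in limma. Pde8a was not called, at 10.63, 11.01 and 10.91 in mixed oligodendroglia and 11.58, 10.50 and 10.76 in mature oligodendrocytes. Of 9 pathway genes 5 were higher, among them the kinase inhibitor Pkia by 3.36 and Prkg2 by 3.10. Progenitor markers averaged 13.0 in the mixed and 10.6 in the mature cells.

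Taking populations as the unit, 7 glial and 17 neuronal population means were compared in limma. Populations are not independent draws, since some share a line or a tissue, and the p-values do not allow for that. Glia were higher in 2 of 25 members and lower in 5. Over all 12392 genes tested, 11.8% were higher and 11.4% lower. Pde8a averaged 8.98 in glia and 4.95 in neurons, a difference of 4.02 ± 1.09 (SE, adjusted p = 8.01e-03). Without the 4 oligodendroglial populations the difference was 1.47 (adjusted p = 0.507). With population means under 6 set to 6 its difference was 2.64. Pde6d averaged 11.74 in glia and 10.62 in neurons (adjusted p = 1.05e-02), and 1.05 separated them without oligodendroglia (adjusted p = 0.122). Lower in glia were Pde1b (6.01 in glia and 9.69 in neurons, adjusted p = 4.77e-03), Adcy7 (2.44 and 6.00, adjusted p = 2.61e-03), Pde4a (3.15 and 5.17, adjusted p = 3.12e-02), Pde4d (9.08 and 10.39, adjusted p = 3.49e-02) and Adcy9 (7.62 and 9.42, adjusted p = 4.23e-02). With means under 6 set to 6, the differences were -0.85 for Adcy7 and -0.24 for Pde4a. The calls of Pde4a and Adcy9 ended without the oligodendroglia, which left 3 glial populations, with adjusted p of 0.081 and 0.173 in limma and differences of -2.38 and -1.87, against -2.02 and -1.80 with all glia. The calls of Pde4a, Pde4d and Adcy9 ended without further scaling. Neuron markers averaged 8.66 to 11.7 in the glial populations, and their part was not tested. Of 36 pathway genes 3 were higher in glia (Rapgef3, by 2.21 with means under 6 set to 6, Gnai2 by 2.31 and Gnai3 by 2.03) and 8 lower, among them Gnal, which fell by 3.37, and the regulatory subunit Prkar1b, which fell by 2.87.

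**Figure D4:**
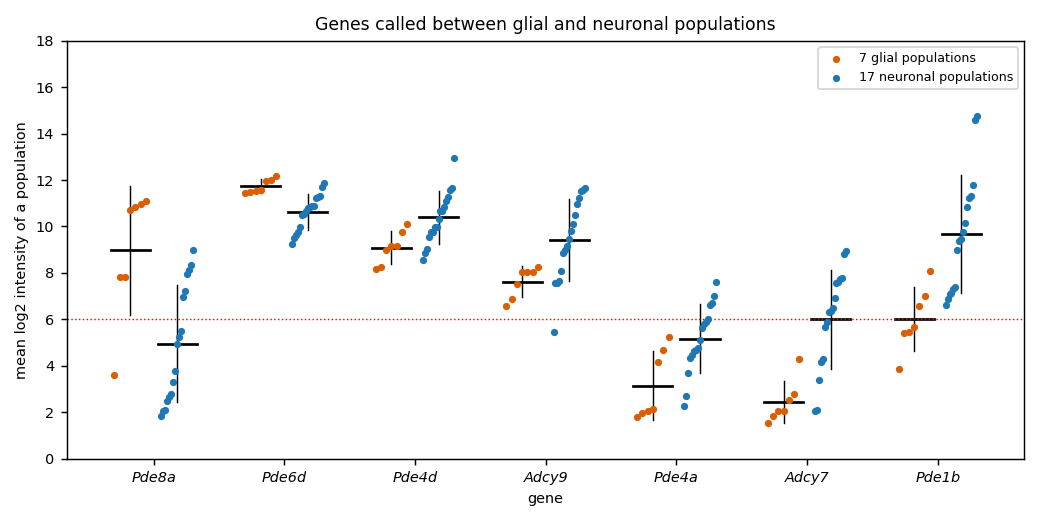
Mean log2 intensity of each of 7 glial (orange) and 17 neuronal (blue) populations for the 7 members called between them, drawn in order of level within each set. Horizontal bars are means over populations, vertical bars SDs, and the red dotted line is the minimum of 6. In Pde8a the 4 highest glial points, from 10.70 to 11.09, are the oligodendroglial populations.

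TRAP RNA was also set against unbound RNA of the same tissue, 535 tests of members in the 24 populations. Unbound arrays of the same line were part of the reference for 17 of these populations. Cort+, granule, unipolar brush, Golgi, and stellate and basket neurons, cerebellar astrocytes and cerebellar mixed oligodendroglia had unbound arrays of other lines alone. Members were higher in TRAP RNA in 88 tests (16.4%) and lower in 244 (45.6%). Over all genes, 18.4% of 240908 tests were higher and 32.4% lower. Under quantile normalization 108 were higher and 192 lower, and 70 and 185 were called under both scalings. Of 856 tests of pathway genes 75 were higher and 365 lower. No population was called above unbound RNA for Adcy5, Pde10a or Pde3b. Adcy5 in Drd1 neurons, at 14.14, was 0.95 above unbound striatum (12.88, 13.17 and 13.52 as lowest, median and highest), under the 2-fold needed. Pde10a in Drd1 neurons, at 14.70, was 0.65 above unbound striatum at 14.05.

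Adcy2, Pde6d and Pde9a were the members raised in most populations, 10, 10 and 7 under control scaling. Adcy2 rose by 4.24 in striatal cholinergic neurons (unbound striatum 8.44), by 3.54 in unipolar brush neurons and by 2.47 in Bergmann glia (unbound cerebellum 9.22). Pde6d rose in all 7 glial populations. Pde9a rose by 2.56 in Cort+ neurons, 2.38 in layer 5a and 2.36 in Purkinje neurons, and in Cck+, layer 5b and layer 6 neurons and cortical astrocytes. Pde8a rose by 3.79 and 3.70 in cortical mature and mixed oligodendroglia, and by 3.04 and 2.64 in the cerebellar ones. Its rise of 1.82 in layer 5a ended under quantile normalization. Pde7b rose by 3.02 in Purkinje neurons, 2.62 in cerebellar astrocytes, 2.41 in cerebellar mixed oligodendroglia, 1.89 in Bergmann glia and 1.34 in unipolar brush neurons, all cerebellar populations.

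Other members rose in few populations. Pde5a rose in Purkinje neurons alone, by 2.68, and was lower in 15 populations, 10 of them under both scalings. Adcy1 rose in Drd1 and Drd2 neurons by 1.84 and 1.62 and was lower in 16. Pde8b rose in Drd1 and Drd2 neurons (2.19 and 1.70), cerebellar astrocytes (2.18) and Bergmann glia (2.15), and in layers 5a and 5b under control scaling alone. Pde2a and Pde4d rose in Golgi neurons by 2.51 and 1.88. Pde1c rose in cortical mixed oligodendroglia by 1.69 and was lower in 16 populations (15 under both scalings), by at least 46.5-fold in Golgi neurons. Pde7a rose in Drd1 and Drd2 neurons (2.06 and 1.72) and cortical mixed oligodendroglia (1.60). All 6 rises called in Drd1 neurons and all 6 in Drd2 neurons (Adcy1, Adcy9, Pde1b, Pde4b, Pde7a and Pde8b in both) ended without further scaling. The shifts subtracted from these arrays in scaling were -1.29 in Drd1 and -0.91 in Drd2 neurons.

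**Figure D5:**
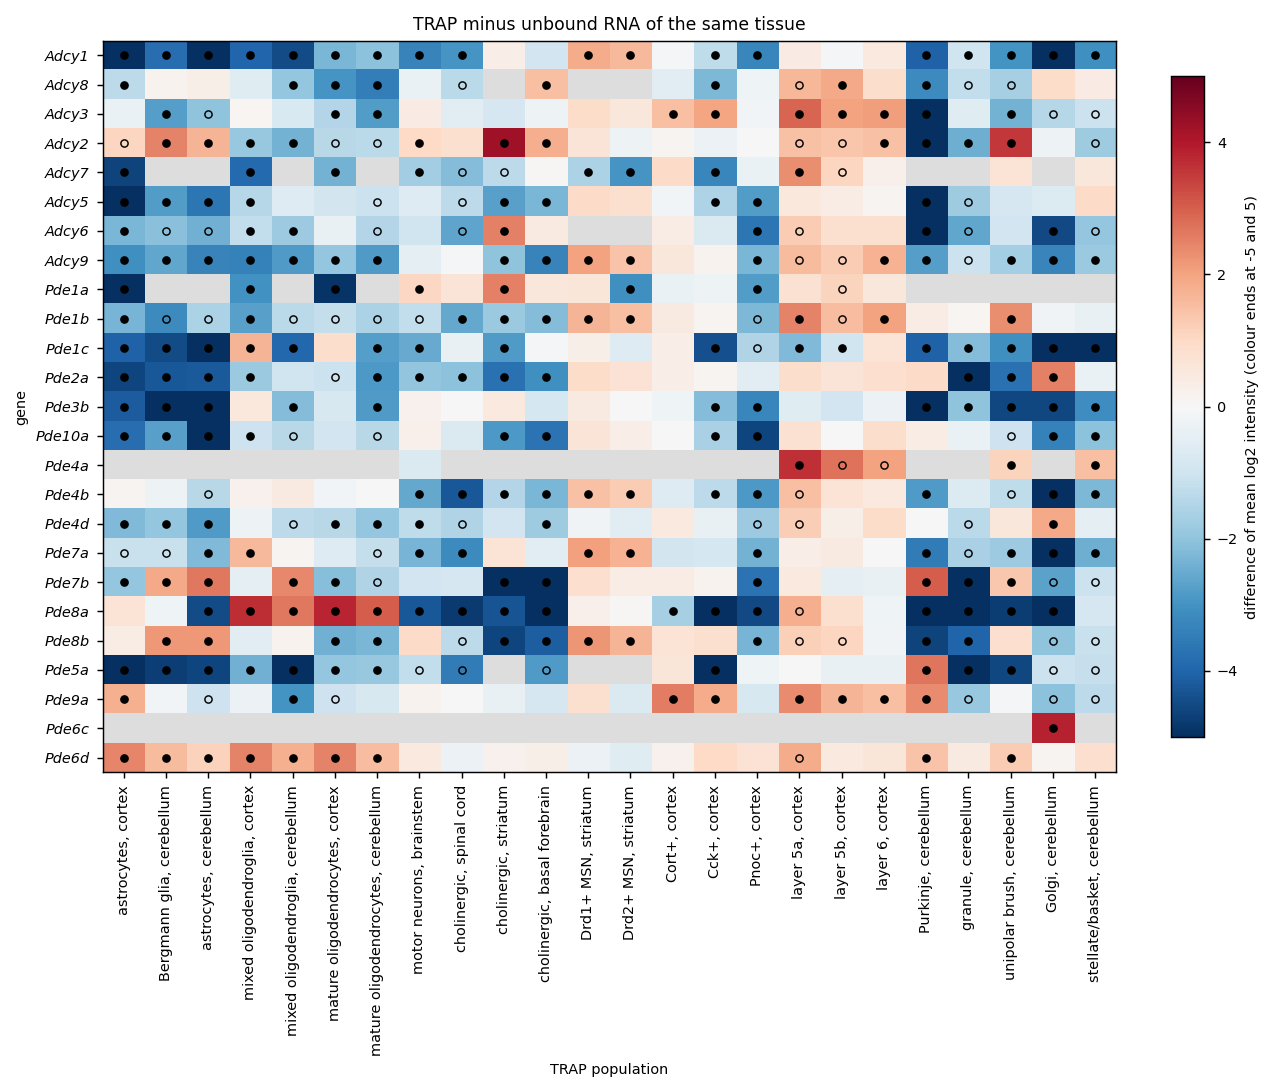
Heat map of the difference in mean log2 intensity, TRAP minus unbound RNA of the same tissue, for 25 members (rows) in 24 populations (columns). Filled dots are calls under control scaling and quantile normalization, open dots calls under control scaling alone, and grey cells were not tested because neither mean reached 6. Pde5a has its filled red cell in Purkinje neurons and Pde8a in the 4 oligodendroglial populations, while Adcy5, Pde10a and Pde3b have no red cell with a dot.

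Unbound RNA showed where in the brain these genes are abundant. Unbound striatum was higher than unbound cortex in 8 of 23 tested members and lower in 7. Over all 9661 genes tested, 16.9% were higher and 8.26% lower. Pde1b was 13.7-fold higher (13.08 in striatum and 9.31 in cortex), Pde7b 9.30-fold, Pde10a 8.47-fold, Pde1c 7.05-fold, Adcy5 6.43-fold and Pde6d 4.26-fold. Pde1a was 9.41-fold lower, at 7.23 in striatum and 10.46 in cortex, Adcy2 4.67-fold lower, and Adcy8 and Pde5a at least 4.04-fold and 3.61-fold. Of the 15 members called, 9 were also called between medium spiny and deep-layer neurons, all in the same direction, and 6 were not called there (Adcy1, Adcy3, Pde5a, Pde6d, Pde7a and Pde9a). That count was not made over all genes, so it cannot be set against a share for genes at large. Of 36 pathway genes 8 were higher, among them Ppp1r1b by 4.22, and 5 lower.

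Unbound cerebellum was higher than unbound cortex in 8 of 23 tested members and lower in 6. Over all 10356 genes tested, 47.1% were higher and 8.23% lower. The median difference of the members was 0.72, against 0.93 over all genes. Under quantile normalization these medians were -0.12 and 0.16, and 5 members were higher and 9 lower. Pde1c was at 11.16, 11.53 and 12.04 in cerebellum (lowest, median and highest of 7), against 4.98, 6.14 and 6.98 in cortex (of 9), 39.7-fold higher (5.31 ± 0.21, adjusted p = 1.81e-38). Pde5a was 10.6-fold higher, Pde3b 9.40-fold, Adcy1 6.58-fold and Pde9a 6.54-fold. Pde1a was at 2.54 in cerebellum and 10.46 in cortex, at least 22.0-fold lower (adjusted p = 2.10e-45). Pde8b, Pde2a, Pde1b, Pde7b and Adcy2 were lower by 5.89-fold, 5.38-fold, 4.86-fold, 4.64-fold and 2.74-fold. The higher calls of Pde6d, Adcy3 and Pde7a ended under quantile normalization. Of 36 pathway genes 8 were higher, among them Pkib by 3.81, and 9 lower, among them Prkg2, at least 4.68-fold lower, and the anchor Akap5, which fell by 5.20.

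With means taken as they are, also under 6, the 4 members with the widest range over the 24 populations were Pde5a, Pde7b, Pde1b and Pde8b. With means under 6 set to 6, Pde2a (9.15), Pde1b (8.78), Pde10a (8.70) and Adcy5 (8.14) had the widest. For each of the first 4 the 5 genes of most similar pattern were taken by Pearson's r over the 24 means, as a description. The populations share tissues, lines and the scaling. For Pde5a these were Shisa6 (0.887), Pvalb (0.865), Mtss1 (0.763), Dusp10 (0.728) and Steap2 (0.718). For Pde1b they were Smyd5 (0.916), Wdr17 (0.916), Stk26 (0.913), the dopamine receptor gene Drd1 (0.912) and Ankrd63 (0.910). For Pde7b they were Gp1bb (0.854), Rhobtb2 (0.839), Pcdh17 (0.827), Nin (0.817) and Abr (0.807), and for Pde8b Crip2 (0.896), Hs2st1 (0.891), Sorbs2 (0.878), Lmo4 (0.870) and St6galnac5 (0.853). Among the members themselves, Pde4b and Pde7a had the highest r (0.905), followed in the medium spiny group by Pde10a with Pde1b (0.813) and Adcy5 with Pde1b (0.778).

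Some patterns could be checked on a further probe set. The 33 members had 80 probe sets, 20 members had several, and 24 probe sets other than the one used reached 6, of which 12 correlated with it at r above 0.8 over the 24 populations. Of these 24, 13 were highest in the same population as the one used and 11 in another. The second probe set of Pde8b was highest in layer 5a at 10.36 (r = 0.901), that of Pde4b in Drd2 neurons at 11.17 (r = 0.960) and that of Adcy1 in Drd2 neurons at 8.19 (r = 0.707). Both further Pde5a probe sets were highest in Purkinje neurons, at 12.95 and 10.90 (r = 0.897 and 0.793). The probe set used for Pde5a is one whose probes may match more than 1 sequence, by its name suffix, as are those of Adcy7, Pde2a and Pde7a. The 3 further probe sets of Pde10a that reached 6 (r = 0.83, 0.73 and 0.72) were all highest in Drd1 neurons, and that of Adcy5 had r = 0.874. No further Pde1c probe set reached 6 in a TRAP population. Those that reached 9.01 and 8.22 in unbound RNA had r = 0.363 and 0.406. Among TRAP populations both were highest in cerebellar mature oligodendrocytes, at 5.41 and 5.61.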

How the data were processed

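RNA from TRAP and unbound fractions was amplified in 2 cycles from 15 ng and hybridized to Affymetrix arrays, per the labels' protocols. The authors deposited linear intensities from GCRMA, named in the submitters' processing notes and run within each group of replicates, per the series text. Version and genome build are not given in the sources used here. Levels between groups depend on the further scaling.

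Here intensities were floored at 1, turned into log2 values and shifted by 1 constant per group so that 18 biotinylated control probe sets had equal means (10.13 to 12.00 before the shift). Of 45101 probe sets, 34958 carry a single gene symbol, 932 several and 9211 none. Each gene was represented by its 1-symbol probe set of highest mean. One limma 3.58.1 model (R 4.3.3, data.table version 1.17.8) was fitted over all arrays with eBayes and trend, and p-values were adjusted by Benjamini-Hochberg over all genes tested. For glia against neurons the model was fitted to the 24 population means. Replicates of a TRAP population are independent preparations per the series text. Named members are those called, largest difference first, up to 12 per direction, and tested members of direct interest. Pathway genes are named from a list of 48, of which 42 matched. The members and lists were chosen with earlier results of these data known. Promoter windows are RefSeq's on GRCm38.p6. The script was tested on simulated data. Precision is limited by the number of arrays, and no 2 arrays were identical.

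TRAP and unbound arrays with the same line, tissue and number were taken to come from 1 preparation, which their titles do not state. Purkinje arrays of line DR168 carry different numbers in TRAP and unbound RNA. They were paired in order, which the labels do not state. The correlation between paired arrays of the deviations from the group means was 0.44 to 0.56 in brainstem and 0.28 to 0.43 in basal forebrain. It was between -0.25 and 0.16 in striatum, spinal cord, Bergmann glia and Purkinje neurons. Alternatives were other scalings, filters, probe set rules, tests, fits and blocks, and leaving out single arrays. Each TRAP array and each unbound array of basal forebrain, brainstem and spinal cord was left out in turn. Unbound arrays of cortex, cerebellum and striatum were never left out. Leaving out layer 5a and using the paired arrays alone were added after the data were seen.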

Additional observations from a re-analysis of the deposited data

Results flagged for a closer look

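Of 92 combinations of a member and a group of 4 to 10 arrays, 9 had 1 array far from the others, a gap that chance gives in about 1 in 20 groups. In cortical astrocytes, line JD133 gave the highest Pde8b value (10.67, against 9.91 to 10.02 on the others) and the lowest Pde9a value (7.74, against 8.10 to 8.12). In unbound cerebellum, replicate 3 of line JD307 was lowest for Pde2a (10.00, against 11.31 to 11.50) and highest for Pde8b (8.29, against 6.72 to 7.23), and line DS152 replicate 1 was lowest for Adcy2 (8.66, against 9.16 to 9.42). In unbound cortex, line JD307 was lowest for Pde1b (7.87, against 8.99 to 9.95) and line JD133 for Pde1c (4.98, against 6.06 to 6.98). In unbound striatum, replicate 2 of line CP73 was lowest for Pde1a (5.89, against 7.19 to 7.80) and Pde9a (6.81, against 7.53 to 7.82).

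The TRAP minus unbound difference was compared between cortex and cerebellum for 3 glial cell types that were purified from both, with limma's test of the difference itself. In 17 of 63 tests it was called with at least 2-fold under both scalings, 7 of 21 in astrocytes, 4 of 21 in mature oligodendrocytes and 6 of 21 in mixed oligodendroglia. Over all genes tested, 29.1%, 24.8% and 26.6% were called in these cell types. Each value below is the cortical minus the cerebellar difference in log2 units, and its median over all genes was 1.03 in astrocytes, 0.615 in mature oligodendrocytes and 0.855 in mixed oligodendroglia. In astrocytes, Pde8a differed by 5.15 (adjusted p = 8.21e-21), or by at least 2.74 with the mean under 6 set to 6, with cortical astrocytes at 7.84 against unbound cortex at 7.15 and cerebellar astrocytes at 3.59 against unbound cerebellum at 8.05. Pde7b differed by -4.57 (adjusted p = 1.75e-17), with cortical astrocytes at 7.80 against unbound cortex at 9.75 and cerebellar astrocytes at 10.15 against unbound cerebellum at 7.53. The values were 2.84 for Pde1c, 2.81 for Pde9a, -1.82 for Pde8b, -1.72 for Adcy5 and -1.60 for Adcy8. Adcy5 was at 5.18 in cortical astrocytes, and its value was -0.89 with 6 in that place. Pde1c was under 6 in both astrocyte populations (2.20 and 4.67), so that its value has no bound.

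In mature oligodendrocytes the values were 3.60 for Pde1c, 2.03 for Pde3b, 1.81 for Pde2a and 1.35 for Adcy3, which was under 6 in both oligodendrocyte populations. In mixed oligodendroglia they were 5.60 for Pde1c, 3.11 for Pde5a, 2.71 for Pde9a, 2.70 for Pde3b, -2.90 for Pde7b and -1.37 for Pde1b. Pde5a and Pde9a were under 6 in both mixed populations, and Pde1b in the cerebellar one. Pde1c and Pde5a are both at least 10.6-fold higher in unbound cerebellum than in unbound cortex, so the unbound level moves with these differences, and its part was not tested.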

How the results depend on the processing

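Of 182 counts of called members recomputed under the alternatives, 160 stayed within 1.5 times the main count. Without further scaling, striatal cholinergic against medium spiny neurons gave 8 calls in place of 16, glia against neurons 4 in place of 7, Drd1 against Drd2 neurons 0 in place of 2 and Bergmann glia against astrocytes 3 in place of 0. Quantile normalization gave 10 calls in place of 6 for Golgi against stellate and basket neurons and 4 for Bergmann glia. The mean of all probe sets gave 7 in place of 11 for Purkinje neurons, 4 in place of 7 for granule neurons, 1 for Drd1 neurons, and 154 in place of 244 members lower in TRAP than in unbound RNA. A minimum of 8 gave 3 for Golgi and 1 for Drd1 neurons, and no expression filter gave 2 for Bergmann glia. With no requirement of TRAP over unbound RNA, the counts were 13 for brainstem and spinal cord against forebrain cholinergic neurons (main 7), 15 for astrocytes against mature oligodendrocytes (5), 11 for mixed oligodendroglia (3), 15 for Golgi neurons, 14 for granule neurons and 6 for Bergmann glia. A requirement of 1.5-fold gave 1 for mixed oligodendroglia. The treat test gave 4 for Cort+ neurons (main 9) and 1 for glia.

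Leaving out each of 85 arrays in turn gave 0 to 0 calls for Bergmann glia, 7 to 8 for brainstem and spinal cord cholinergic neurons, 7 to 10 for Cort+ neurons, 5 to 6 for astrocytes, 3 to 4 for mixed oligodendroglia, 2 to 3 for Drd1, 6 to 7 for glia, 6 to 6 for Golgi, 7 to 7 for granule, 12 to 14 for medium spiny, 11 to 11 for Purkinje and 16 to 16 for striatal cholinergic neurons. It gave 86 to 90 members higher and 243 to 245 lower in TRAP than in unbound RNA, and 100 to 103 in the 8 populations with paired unbound arrays. With the replicate block those 8 populations gave 83 calls, against 101 with all unbound arrays and 106 with the paired arrays alone and no block, and the block moved no other count by over 1.5 times.

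Under quantile normalization the difference from unbound RNA turned its sign for Adcy3 (0.76), Pde5a (0.42), Pde8b (0.61) and Pde9a (0.12) in Golgi neurons, for Pde1b (0.023) and Pde9a (0.15) in cerebellar astrocytes and for Adcy6 in layer 5a (-0.0555). With unbound arrays of the same line it did so for Pde1b in cortical mature oligodendrocytes (0.23), and with the mean of all probe sets for Pde4d between medium spiny and deep-layer neurons (0.085). The cause was not tested. Of 115 single calls between populations, 53 held under all 7 settings tried on each result, and of 411 results with arrays left out in turn 18 lost their call at least once. Of the single calls between populations, 18 were lost with the treat test, 12 under quantile normalization, 12 without further scaling and 4 with the mean of all probe sets. Of 332 single calls of TRAP against unbound RNA, 138 held under all 7 settings. Among these 332, 76 were lost with the treat test, 69 under quantile normalization, 44 without further scaling and 19 with the mean of all probe sets. All these counts of single calls rest on adjusted p and fold, without the requirement of TRAP over unbound RNA. A call that could not be tested in a setting is not among those lost. The losses marked with each result above include such cases, so they can be more numerous. Signal over background limits the size of folds, which are bounds where a mean was under 6.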
